A study of Mus musculus with 4 samples.

Results

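Chemokines are small secreted proteins that steer cells carrying the matching receptors, and 9 of their genes were followed here through the developing mouse mammary gland: Cxcl1, Cxcl2, Cxcl10, Cxcl12, Cxcl14, Cxcl16, Ccl2, Ccl7 and Cx3cl1. They were found by symbol and are 9 of 32932 genes listed in any of the 4 count tables. The genes were selected on measured values of these same cells, including the level of Cxcl10 in bud cells at E13.5 and E14.5, so their levels by stage and tissue are given as a description and not as a test. Single mammary cells of wild-type female C57B6 mice (C57 B6/N in the study's methods) were profiled with the 10x 3' kit at 4 stages, the embryonic days E13.5, E14.5, then E15.5, and birth (P0). These stages cover the invaginating bud, the first sprouting and the small ductal tree of the newborn. Each stage is 1 library made from dissected rudiments pooled over several embryos of different dams, so a difference between stages cannot be told apart from a difference between libraries. At every stage CD45, CD31 and Ter119 positive cells, that is blood and endothelial cells, were sorted away, and EpCAM positive epithelial and EpCAM negative stromal cells were captured together. The P0 glands were also digested with more collagenase and less hyaluronidase than the embryonic rudiments, and red cells were lysed in that sample only.

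Chemokine ligands act through receptors of the G protein-coupled family and are classed by the spacing of their first cysteines. CXCL1 and CXCL2 call neutrophils through CXCR2, CCL2 and CCL7 call monocytes through CCR2, and CXCL10 calls activated T cells and NK cells through CXCR3. CXCL12 is the ligand of CXCR4 and is scavenged by ACKR3, and it guides many migrating cells of the embryo. CXCL14 is a homeostatic chemokine made by skin and other epithelia. CXCL16 and CX3CL1 are made as membrane-bound proteins that proteases of the ADAM family can shed, with CXCR6 and CX3CR1 as their receptors. Cxcl1, Cxcl2, Cxcl10, Ccl2 and Ccl7 are textbook targets of NF-kB, and Cxcl10 is induced by interferons as well.

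The genes lie on 5 chromosomes in GRCm38. Cxcl1 (chromosome 5, 90891241 to 90893115) and Cxcl2 (chromosome 5, 90903871 to 90905938) stand on the same strand with 10755 bases between them, and Ccl2 (chromosome 11, 82035571 to 82037453) and Ccl7 (chromosome 11, 82045712 to 82047525) with 8258 bases. Cxcl10 (chromosome 5, 92346638 to 92348889) lies 1440699 bases beyond Cxcl2, and Cxcl16 (chromosome 11, 70453983 to 70459984) is on the chromosome of Ccl2. Cxcl12 (chromosome 6, 117168535 to 117181367), Cxcl14 (chromosome 13, 56288643 to 56296551) and Cx3cl1 (chromosome 8, 94772009 to 94782427) have no other member on their chromosome. Promoter windows of 250 bases before to 50 bases after the start were found in the RefSeq table of build GRCm38.p6 for 6 of the 9 members, namely Cxcl1, Cxcl2, Cxcl10, Cxcl12, Cxcl14 and Cx3cl1. The windows of Cxcl1 (chr5:90890995-90891294, plus strand), Cxcl2 (chr5:90903649-90903948, plus strand) and Cxcl10 (chr5:92348840-92349139, minus strand) are shown because these 3 genes hold every NF-kB match found among the members, with NF-kB and interferon response (ISRE) matches in capitals.
Cxcl1: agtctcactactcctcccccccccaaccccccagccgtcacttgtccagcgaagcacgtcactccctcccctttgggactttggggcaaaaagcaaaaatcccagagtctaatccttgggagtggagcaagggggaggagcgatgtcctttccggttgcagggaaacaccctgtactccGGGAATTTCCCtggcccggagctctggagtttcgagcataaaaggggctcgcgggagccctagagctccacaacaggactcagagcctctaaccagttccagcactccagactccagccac
Cxcl2: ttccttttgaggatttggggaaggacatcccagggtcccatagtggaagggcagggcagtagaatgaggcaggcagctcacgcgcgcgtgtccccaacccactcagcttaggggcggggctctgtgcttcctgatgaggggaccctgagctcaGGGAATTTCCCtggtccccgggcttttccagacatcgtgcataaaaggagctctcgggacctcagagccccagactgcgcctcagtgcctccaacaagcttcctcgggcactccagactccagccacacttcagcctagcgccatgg
Cxcl10: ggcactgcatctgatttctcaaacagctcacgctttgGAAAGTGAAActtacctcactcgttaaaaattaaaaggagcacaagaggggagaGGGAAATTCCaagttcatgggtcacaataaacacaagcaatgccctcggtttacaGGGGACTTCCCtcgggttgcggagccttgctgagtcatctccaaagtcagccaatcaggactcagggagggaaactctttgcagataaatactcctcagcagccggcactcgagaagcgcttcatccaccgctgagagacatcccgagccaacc
The promoters of Cxcl1 and Cxcl2 carry the same NF-kB letters, at window bases 180 to 190 and 154 to 164, where a match on each strand overlaps by all but 1 base. Cxcl10 has an NF-kB match at bases 92 to 101, 2 overlapping ones within bases 147 to 157, and an ISRE match at bases 38 to 47. NF-kB was searched as its 10-base consensus, ISRE as GAAANNGAAA, AP-1 as TGANTCA and the E-box as CANNTG, each on both strands. NF-kB matched 3 of 6 member promoters against 8.46% of 32851 promoters in the table, and ISRE matched 2 of 6 (Cxcl10 and Cxcl14) against 3.44%. AP-1 matched 1 of 6 (Cxcl10) against 7.81%, and the E-box 3 of 6 (Cxcl1, Cxcl10 and Cx3cl1) against 72.3%. A match describes letters in the window and is not evidence of a bound site.

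Cells with at least 5000 UMIs (counted molecules) and at most 6% mitochondrial UMIs were kept, which left 235 of 981 barcodes at E13.5, 76 of 807 at E14.5, 816 of 2642 at E15.5 and 503 of 1466 at P0. Kept cells had a median of 17908, 25207, 24646 and 9226 UMIs, and no kept barcode was shared between libraries. A cell was called epithelium or mesenchyme by the larger of its summed Epcam, Krt8, Krt18, Krt5 and Krt14 UMIs and its summed Col1a1, Col1a2 and Col3a1 UMIs. This gave 98, 45, 532 and 230 epithelial and 135, 31, 283 and 273 mesenchymal cells from the earliest stage to the latest. Levels are UMIs of a gene per 1000000 UMIs of the group (CPM) with exact 95% Poisson intervals, which cover counting error only, since 1 library a stage leaves no replicates and PCR and animal differences are not in them. UMIs of a 3' kit do not scale with transcript length in a known way, so levels are compared within a gene and never between genes.

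Cxcl12, Ccl2 and Ccl7 lay on the mesenchymal side and Cxcl16 and Cx3cl1 on the epithelial side wherever they were tested, while Cxcl1, Cxcl2 and Cxcl10 changed side between stages. Of the 9 genes, 5 reached 20 UMIs over both tissues at E13.5 and at E14.5, and all 9 did at E15.5 and P0. A gene was called higher in a tissue where the ratio was at least 2-fold and its exact 95% interval left out 1. At E13.5, 3 genes were higher in epithelium (9.81% of all 10630 genes tested) and 2 in mesenchyme (20.7%). At E14.5, 4 genes were higher in epithelium (13.4% of 9067) and 1 in mesenchyme (16.8%). The split was even at E15.5, with 4 genes higher in epithelium (16.2% of 13149) and 4 in mesenchyme (22.3%). At P0 it was 3 in epithelium (23.8% of 10496) and 6 in mesenchyme (18.4%). Since the genes were chosen on such contrasts, the shares of all genes stand beside the counts as background and nothing is read from the comparison.

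**Figure D1:**
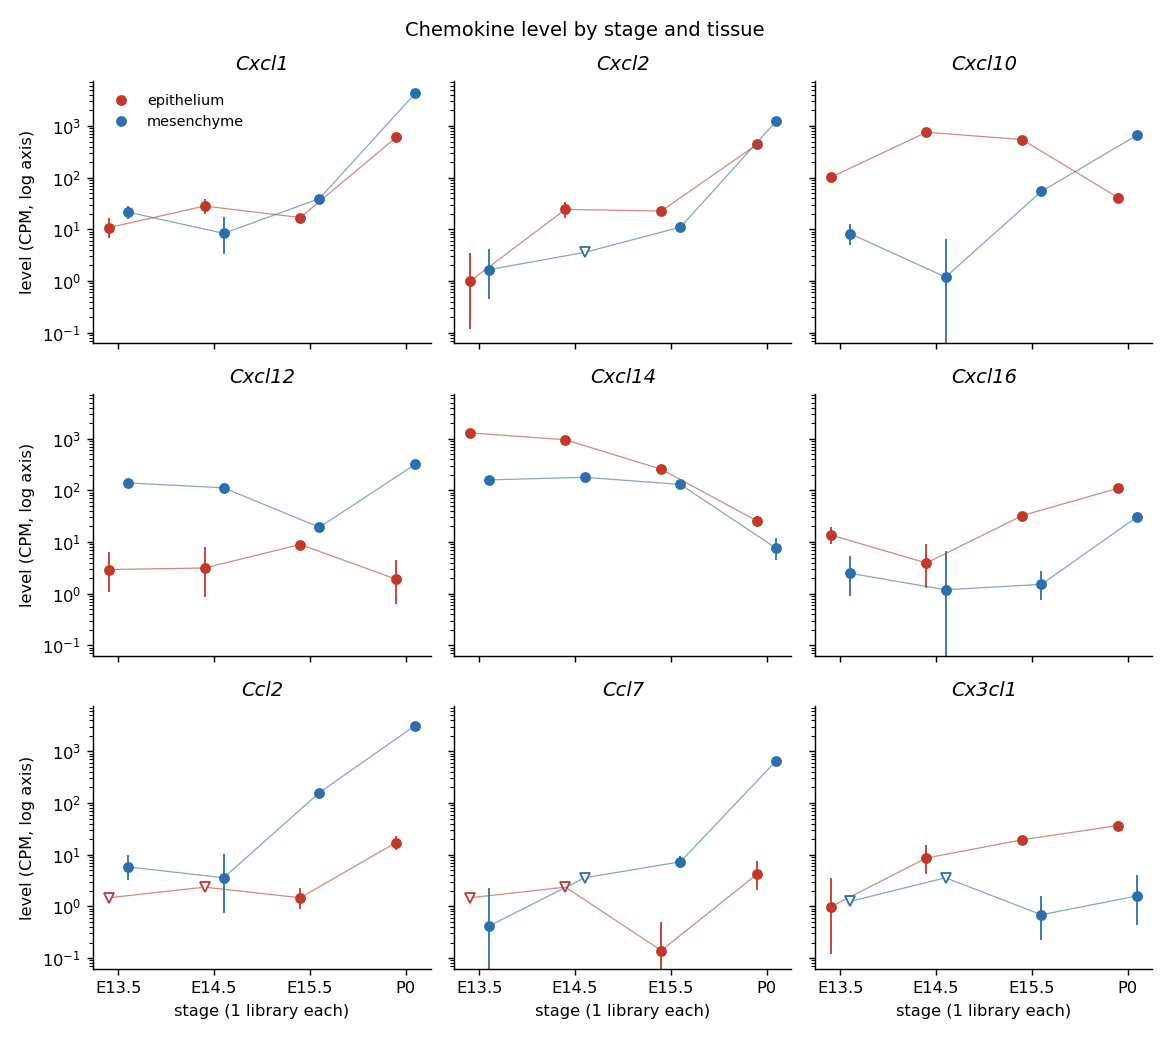
Level of each chemokine gene in CPM (log axis) against stage, in epithelium (red) and mesenchyme (blue), with exact 95% Poisson intervals as bars. Open triangles mark the limit of 3 counts where no UMI was seen. Cxcl14 was lowest at P0 in both tissues, at 25.6 and 7.58 CPM, while Cxcl1, Cxcl2, Ccl2 and Ccl7 were highest in P0 mesenchyme, and Cxcl10 changed tissue between E15.5 and P0.

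Cxcl14 was highest in the early epithelium, a mix of bud-like and other clusters that differed between stages. In epithelium it stood at 1298 CPM (1249 to 1348) at E13.5, 953 (899.8 to 1008) at E14.5, 256 (248 to 265) at E15.5 and 25.6 (19.9 to 32.6) at P0, and no 2 of these intervals touched. In mesenchyme it stood at 159 (144 to 176), 179 (152 to 210.0), 130.3 (122 to 139) and 7.58 CPM (4.56 to 11.8). Both tissues were thus lowest at birth, and epithelium exceeded mesenchyme 8.14-fold (7.31 to 9.08) at E13.5, 5.32-fold at E14.5, 1.97-fold (1.83 to 2.12) at E15.5 and 3.38-fold (2.01 to 5.96) at P0. The E15.5 ratio fell just short of the 2-fold line and was the only one of the 28 tested ratios of the members to be called for neither tissue. After every cell was thinned to 5000 UMIs, 77.6% of epithelial cells at E13.5 and 88.9% at E14.5 still held a Cxcl14 UMI, against 47.0% at E15.5 and 8.70% at P0. In mesenchyme the thinned shares were 39.3%, 48.4%, 33.9% and 2.56% from E13.5 to P0.

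Within the epithelium of E13.5 and of E14.5, Cxcl14 was higher outside the bud-like cluster than in it. At E13.5 the highest level was in an unnamed cluster of 44 cells led by Fbln2, Dcn, Ptn and Col17a1, the last a gene of basal epidermal attachment, with 2045 CPM and a UMI in all 44 cells. That cluster raised 5 of 7 proliferation markers and 2 of 9 epidermis markers. The bud-like cluster (22 cells, led by Pthlh, Msx1 and Ndnf) had 706 CPM, again with a UMI in each of its cells, and the periderm-like cluster of 32 cells, the flat outer layer of embryonic skin, had 239. At E14.5 the same order held, with 1349 CPM in an unnamed cluster of 13 cells led by Krt1 and cell cycle genes, and 749 in the 32 bud-like cells. At E15.5 an unnamed cluster of 45 cells with Dcn, Has2 and Slc1a3 among its leading genes (588 CPM, 544 to 635) and the bud-like cluster (555, 523 to 588) had overlapping intervals, whereas the luminal-like cluster had 25.9 CPM and the 16 epidermis-like cells 8.21. The bud-like clusters stood at 706, 749 and 555 CPM from E13.5 to E15.5, but these values need not cover the same kind of cells. The name goes by markers raised against the other epithelium of the same stage. At E15.5 the largest unnamed cluster (208 cells, 215 CPM) detected 8 of 10 bud markers without taking the name. The proliferative-like cluster of that stage (294 CPM) detected 9 of 10. The part of the cell mix in the fall of the whole epithelium was not tested. At P0 the 19 basal-like cells had 134 CPM (88.9 to 193), against 1.39 to 33.3 in the luminal progenitor-like and proliferative-like clusters. That proliferative-like cluster also raised 5 of 7 markers of hormone-sensing (mature luminal) cells, with Cited1 among its leading genes. Cxcl14 was among the leading genes of the E13.5 unnamed cluster. It had no part in making the clusters, but it was selected on values of these same cells. The names rest on marker lists, and clusters of cells are compared by their values only.

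Cxcl10, the interferon-inducible T cell chemokine, was an epithelial gene before birth and a mesenchymal one at P0. In epithelium it stood at 101 CPM (88.1 to 116) at E13.5, 757 (710.1 to 807) at E14.5, 546 (534 to 558) at E15.5 and 41.3 (33.9 to 49.9) at P0. In mesenchyme the values were 8.30 CPM (5.07 to 12.8), 1.19 (0.0302 to 6.65, a single UMI), 54.1 (48.9 to 59.8) and 664 (632 to 696). Epithelium exceeded mesenchyme 12.2-fold (7.70 to 20.4) at E13.5 and 10.1-fold (9.11 to 11.2) at E15.5, and at E14.5 the ratio was 635 with an interval from 114 to 25087. At E13.5 a single cell held 80.0% of the 20 mesenchymal UMIs and another 41.1% of the 207 epithelial ones, and without the top cell of each tissue the log2 ratio was 5.17 in place of 3.61. At P0 mesenchyme was 16.1-fold higher (13.2 to 19.7). With 1 library a stage, the reversal between E15.5 and P0 has no replicate check. Thinned shares of cells with a UMI followed the levels, at 14.3%, 37.8%, 52.4% and 6.96% in epithelium and 1.48%, 0%, 8.83% and 46.9% in mesenchyme. At their own depth 3.23% of the E14.5 mesenchymal cells, a single one, held a Cxcl10 UMI.

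The bud-like clusters held Cxcl10 in a few cells at E13.5 and in most cells at E14.5. At E13.5 the bud-like cluster had 353 CPM from 131 UMIs, a level 7.75-fold (5.80 to 10.4) that of the other epithelium, where 9.61% of all 7826 genes tested were called higher in bud-like cells. Those UMIs lay in 6 of 22 cells, and the separate cells held 85, 40, 3, 1, 1 and 1, so that a pair of cells carried most of the signal. The unnamed E13.5 cluster had 62.7 CPM spread over 14 of 44 cells with at most 19 UMIs in one, and the periderm-like cluster had 12.3. At E14.5 the bud-like cluster had 1126 CPM from 947 UMIs in 21 of 32 cells, with 197, 135, 123 and 99 UMIs in the 4 highest cells, and 28.6-fold (17.8 to 49.3) the level of the other epithelium. That size depended on the processing, since the log2 ratio of 4.84 was 2.86 as a mean over cells, 2.75 after thinning, 2.67 with up to 10% mitochondrial UMIs and 6.13 with at least 10000 UMIs. There 23.2% of all 7102 genes tested were called higher in bud-like cells, and Cxcl10 headed the leading genes of the cluster. It was kept out of the clustering, but it was selected on its level in bud cells, so its rank is description only. The other epithelial cluster of E14.5 had 39.4 CPM in 4 of 13 cells.

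The bud call for Cxcl10 depended on how bud cells were picked, and it turned over under a marker sum. Cells with more UMIs of the bud markers, with Krt8 and Krt18 left out, than of the epidermal and periderm markers numbered 8 at E13.5, and all 8 fell in the bud-like cluster, yet they held 1 Cxcl10 UMI (7.25 CPM). The remaining 14 bud-like cells had 557 CPM and the 76 other epithelial cells 45.5 CPM. At E14.5 the 11 cells picked by the sum had 444 CPM, the 22 bud-like cells that the sum did not pick had 1461, and the 12 cells picked by neither had 40.4. The log2 ratio of bud to other epithelium was therefore 2.96 by cluster and -3.90 by sum at E13.5, and 4.84 and -0.94 at E14.5. By sum, the other epithelium took in the bud-like cells that the sum did not pick. Set beside the cells picked by neither, those picked by the sum were lower at E13.5 (7.25 against 45.5 CPM). At E14.5 they were higher (444 against 40.4). Without its highest cell the E13.5 cluster ratio was 1.88 on the log2 scale.

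At E15.5 the bud-like cluster of 86 cells again had the highest Cxcl10 level, 1291 CPM, with 690.4 in proliferative-like cells, 562 in the largest unnamed cluster, 202 in the unnamed cluster with Dcn and Has2, and 143 in luminal-like cells. The 16 epidermis-like cells held no Cxcl10 UMI, which by a limit of 3 counts allows up to 6.16 CPM. The mesenchyme of E15.5 was low throughout, from 34.8 CPM in sub-epithelial mesenchyme-like cells to 106 in dermal mesenchyme-like cells, 3.06-fold (2.31 to 4.07) apart. At P0 the epithelial clusters lay between 25.8 and 54.2 CPM, all below the 143 CPM of the E15.5 luminal-like cells but above the empty epidermis-like cluster of that stage.

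**Figure D2:**
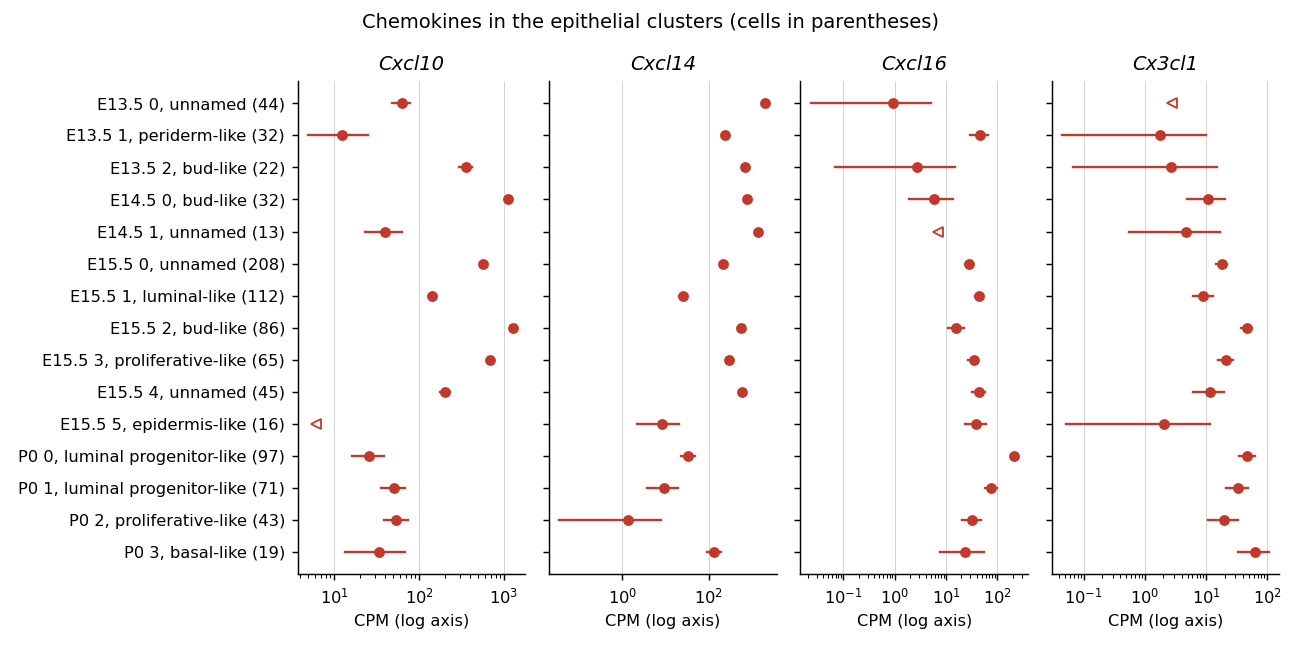
Levels of Cxcl10, Cxcl14, Cxcl16 and Cx3cl1 in CPM (log axes, which differ between panels) in each epithelial cluster, with exact 95% Poisson intervals and the number of cells in parentheses. Open triangles mark the 3-count limit of clusters with no UMI. The bud-like clusters hold the highest Cxcl10 point of each embryonic stage (353, 1126 and 1291 CPM), and the Cxcl16 points of P0 reach 217 CPM in the larger luminal progenitor-like cluster.

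Cxcl12, which guides cells that carry CXCR4, was higher in mesenchyme as a whole at every stage, though not in every mesenchymal cluster of E15.5. Mesenchyme had 139 CPM (125 to 155) at E13.5, 112 (90.6 to 137) at E14.5, 19.3 (16.2 to 22.8) at E15.5 and 319 (297 to 342) at P0. Epithelium had 2.94, 3.14, 8.96 and 1.91 CPM, on 4 to 128 UMIs. The intervals of E13.5 and E14.5 mesenchyme overlapped, and the E15.5 level was 7.21-fold (5.91 to 8.85) below that of E13.5. The mesenchymal excess was 47.3-fold (21.5 to 129.9) at E13.5, 35.7-fold (13.49 to 134) at E14.5, 2.15-fold (1.68 to 2.76) at E15.5 and 167-fold (71.1 to 515) at P0. In E13.5 mesenchyme the cluster named sub-epithelial, that is like the cells wrapped around the bud, had 71.2 CPM against 169 in the unnamed cluster led by Actc1, Ebf2 and Itm2a. The latter raised 5 of 6 dermal mesenchyme markers, and it went unnamed because muscle genes (Actc1 and Myog) outnumbered those markers among its leading genes. At E15.5 Cxcl12 stood at 3.66 CPM in sub-epithelial mesenchyme-like and at 60.5 in dermal mesenchyme-like cells, 16.5-fold (8.04 to 39.4) higher in the latter. The E15.5 level holds for deep barcodes only, since barcodes under 5000 UMIs had 78.7 CPM of Cxcl12 at that stage against 12.4 in all kept cells.

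Ccl2 and Ccl7, the neighbouring monocyte chemokine genes, were close to absent early and mesenchymal from E15.5 on. Ccl2 had no UMI in epithelium at the first 2 stages, which by a limit of 3 counts allows up to 1.47 CPM at E13.5 and 2.36 at E14.5, then 1.47 CPM (21 UMIs) at E15.5 and 17.2 (45 UMIs) at P0. In mesenchyme it stood at 5.81 CPM (3.18 to 9.75), 3.58 (0.738 to 10.5), 159.6 (151 to 169) and 3167 (3098 to 3237). The mesenchymal level was 109-fold (70.8 to 176) the epithelial one at E15.5 and 184-fold (137 to 253) at P0. Ccl7 had at most 2 UMIs in any embryonic group other than E15.5 mesenchyme, where 53 UMIs gave 7.30 CPM (5.47 to 9.55). At P0 Ccl7 had 4.21 CPM in epithelium and 656 (625 to 689) in mesenchyme, a 156-fold (86.9 to 313) difference. A Ccl2 UMI was present in 58.2% of thinned P0 mesenchymal cells and in 8.70% of thinned P0 epithelial cells, whose median depths were 8743 and 9973 UMIs. Whether the low epithelial share is free RNA in the droplets was not tested.

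Cxcl1 and Cxcl2, the neutrophil chemokine genes, were low in all embryonic groups and high in both tissues at P0. Cxcl1 stood at 10.8 CPM (6.75 to 16.3), 28.3 (19.8 to 39.1), 16.9 (14.9 to 19.2) and 599.8 (570.4 to 630.2) in epithelium from E13.5 to P0. In mesenchyme it stood at 21.6 (16.1 to 28.3), 8.35 (3.36 to 17.2), 39.4 (35.0 to 44.2) and 4279 (4198 to 4361). The tissue order changed between stages, since mesenchyme was 2.00-fold (1.20 to 3.46) higher at E13.5, epithelium 3.39-fold (1.49 to 9.01) higher at E14.5, and mesenchyme 2.33-fold (1.95 to 2.77) and 7.13-fold (6.77 to 7.53) higher at E15.5 and P0. The E13.5 and E15.5 calls are marginal, because thinning left log2 ratios of epithelium to mesenchyme of -0.86 and -0.97, inside the 2-fold line. At E14.5 thinning left 4 epithelial UMIs and 1 mesenchymal UMI, too few to test. Cxcl2 stood at 0.980 CPM on 2 UMIs, 24.4 (16.5 to 34.6), 22.6 (20.2 to 25.2) and 439.5 (414 to 466) in epithelium, and at 1.66, 0, 11.0 and 1233 (1190 to 1277) in mesenchyme. With no mesenchymal UMI at E14.5, the epithelial level was at least 6.80-fold higher, counted against a floor of 3 UMIs, and the lower end of the exact interval was 5.21-fold. It was 2.05-fold (1.60 to 2.65) higher at E15.5, and at P0 mesenchyme was 2.81-fold (2.62 to 3.00) higher. Of the 31 Cxcl2 UMIs of E14.5 epithelium, 26 came from bud-like cells, with 69.2% of those 26 in 1 cell.

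**Figure D3:**
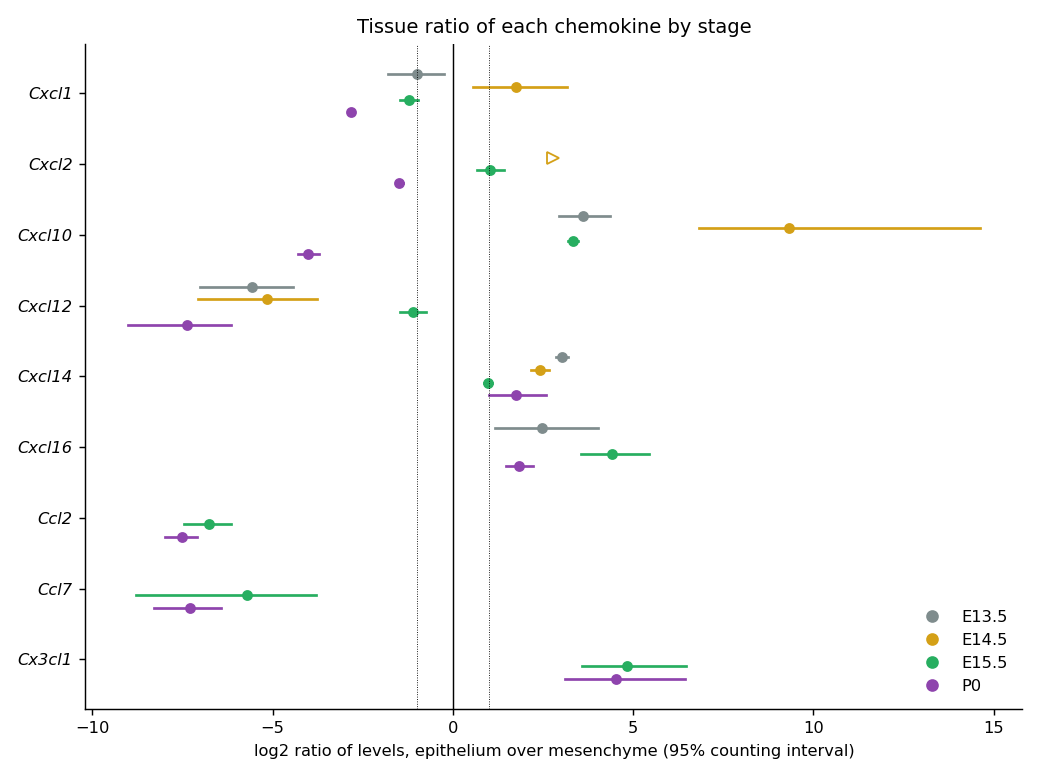
Log2 ratio of the level in epithelium over mesenchyme for each gene with at least 20 UMIs at a stage, with exact 95% intervals of counting error. Dotted lines mark 2-fold, and the open triangle is the bound for Cxcl2 at E14.5, where mesenchyme held no UMI. Cxcl10 lies at 3.61, 9.31 and 3.33 before birth and at -4.01 at P0, while Cxcl12, Ccl2 and Ccl7 lie on the mesenchymal side at each stage shown.

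The membrane-bound pair was epithelial. Cxcl16 stood at 13.7 CPM (9.11 to 19.8), 3.93 (1.28 to 9.16), 32.5 (29.6 to 35.6) and 109.8 (97.4 to 123) in epithelium from E13.5 to P0, and at 2.49, 1.19, 1.52 and 30.7 (24.2 to 38.4) in mesenchyme. Epithelium exceeded mesenchyme 5.51-fold (2.24 to 16.3) at E13.5, 21.4-fold (11.9 to 43.2) at E15.5 and 3.58-fold (2.77 to 4.66) at P0, and E14.5 had 6 UMIs in all, too few to test. Among P0 cells with at least 10000 UMIs the log2 ratio was 0.80 in place of 1.84, under the 2-fold line. Of the 28 epithelial UMIs of E13.5, 26 fell in periderm-like cells (45.7 CPM), against 2.69 CPM in bud-like cells. At E15.5 bud-like cells had the lowest epithelial level, at 15.7 CPM (10.8 to 22.2), while the other epithelial clusters lay between 27.6 and 44.4. At P0 the 2 luminal progenitor-like clusters had 217 (188 to 249) and 75.7 CPM (57.3 to 98.0), and basal-like cells had 23.9 (7.76 to 55.8). The mesenchymal Cxcl16 of P0 was highest in Col15a1 fibroblast-like cells, at 88.8 CPM, which is 8.45-fold (4.23 to 18.7) the level of the Pi16 fibroblast-like cells.

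Cx3cl1, the gene of fractalkine, was counted almost wholly in epithelium. Epithelium had 0.980 CPM (2 UMIs) at E13.5, 8.64 (4.31 to 15.46) at E14.5, 19.5 (17.2 to 21.9) at E15.5 and 36.7 (29.7 to 44.8) at P0. Mesenchyme had no UMI at E13.5 and E14.5, 5 UMIs at E15.5 and 4 at P0, and the epithelial excess was 28.2-fold (11.96 to 87.7) and 23.0-fold (8.71 to 86.2) at the last 2 stages. Unlike Cxcl16, Cx3cl1 was highest in the bud-like cluster at E15.5, at 45.8 CPM (36.9 to 56.1), and the other epithelial clusters of that stage lay between 2.05 and 21.0. At P0 basal-like cells had 62.1 CPM (33.1 to 106) and the larger luminal progenitor-like cluster 47.2 (34.3 to 63.4), with overlapping intervals.

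The newborn mesenchyme held its chemokines unevenly. Its cells fell into Pi16 fibroblast-like (89 cells), Col15a1 fibroblast-like (62 cells) and Eln fibroblast-like (32 cells) clusters, an unnamed cluster of 63 cells led by haemoglobin and neutrophil genes such as S100a8, and an unnamed one of 27 cells with muscle genes such as Acta1. Col15a1 fibroblast-like cells, whose leading genes include the adipocyte fatty acid carrier Fabp4, had the highest Ccl2 level, 6206 CPM (6000 to 6418), against 3507 (3389 to 3628) in Pi16 and 657 (562 to 764) in Eln fibroblast-like cells. The same cluster was highest for Cxcl1 (6518 CPM against 3969 and 4501), Cxcl2 (2197 against 1044 and 1597) and Ccl7 (1031 against 779.9 and 482). The gap between Col15a1 and Eln fibroblast-like cells was 9.45-fold (8.09 to 11.1) for Ccl2 but 1.45-fold (1.36 to 1.55) for Cxcl1 and 2.14-fold (1.76 to 2.62) for Ccl7. Cxcl10 had another order, with 1178 CPM in Eln fibroblast-like cells, 1.71-fold (1.49 to 1.96) the 688 of Pi16 fibroblast-like cells, whose level did not differ beyond counting error from the 734 of Col15a1 fibroblast-like cells (ratio 1.07, 0.9397 to 1.21). Cxcl12 was highest in the unnamed cluster with haemoglobin and neutrophil genes, at 692 CPM (622 to 768), and lowest in the muscle-gene cluster (117) and Pi16 fibroblast-like cells (130.3). That unnamed cluster detected all 6 Col15a1 fibroblast markers, 5 of them raised against the other P0 mesenchyme. It went unnamed because blood genes led it. Single cells weighed heavily in small clusters, since 1 cell held 74.1% of the Cxcl2 and 57.1% of the Ccl2 UMIs of the muscle-gene cluster and 42.8% of the Cxcl2 UMIs of the Eln fibroblast-like cells.

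At E15.5 Ccl2, Ccl7, Cxcl1 and Cxcl2 were higher in dermal than in sub-epithelial mesenchyme-like cells. Ccl2 had 275 CPM in dermal mesenchyme-like and 84.2 in sub-epithelial mesenchyme-like cells, 3.26-fold (2.73 to 3.90) apart, though 48.9% of the dermal UMIs came from 1 cell. Ccl7 was 3.87-fold (1.94 to 8.26), Cxcl1 3.18-fold (2.27 to 4.51) and Cxcl2 10.4-fold (4.68 to 27.1) higher in dermal mesenchyme-like cells, where 1 cell held 62.0% of the Cxcl2 UMIs, and Cxcl14 was 1.11-fold (0.907 to 1.37) higher, an interval that holds 1. Another 54 cells of E15.5 mesenchyme formed a cluster with keratin genes among its leading genes, where Ccl2 stood at 165 CPM and Cxcl14 at 202.

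**Figure D4:**
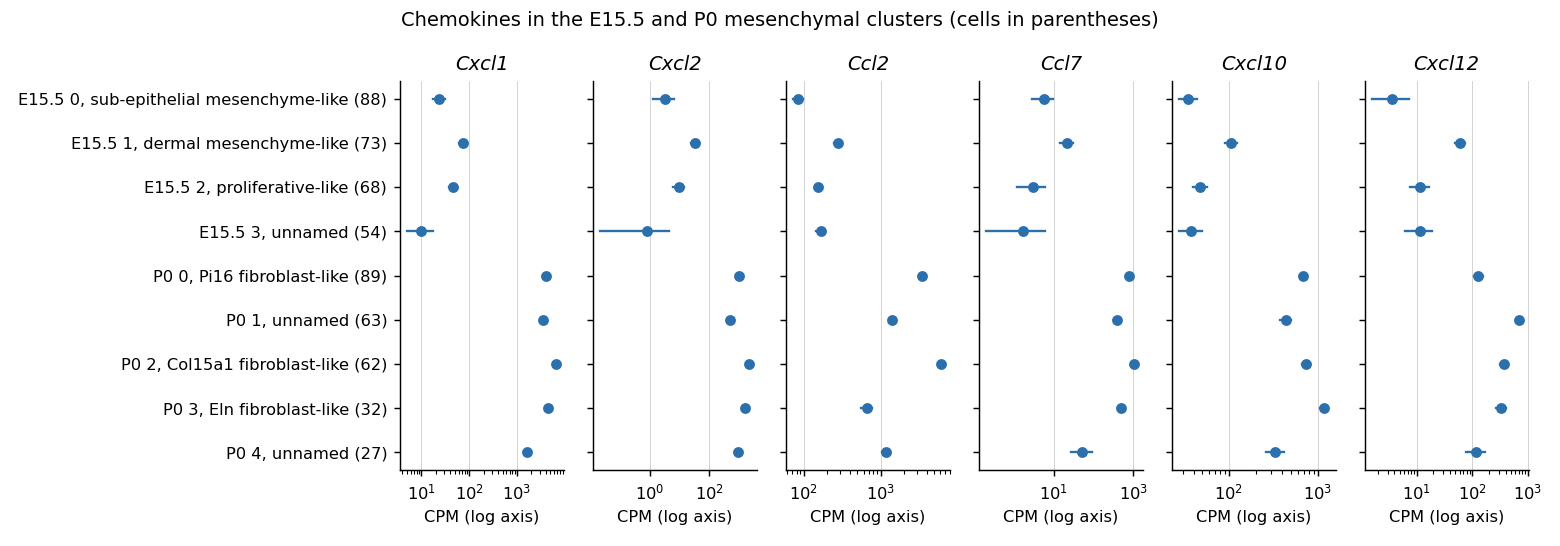
Levels of Cxcl1, Cxcl2, Ccl2, Ccl7, Cxcl10 and Cxcl12 in CPM (log axes, which differ between panels) in the mesenchymal clusters of E15.5 and P0, with exact 95% Poisson intervals and the number of cells in parentheses. The lowest P0 point for Cxcl1, 1589 CPM, lies above every E15.5 point, and Ccl2 spans 657 to 6206 CPM within P0.

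The neighbouring genes were often found in the same newborn cells, but so were members on different chromosomes. Of 124 P0 mesenchymal cells with a Ccl7 UMI, 103 (83.1%) also had a Ccl2 UMI, against 63.0% of all 273 cells, and of 127 with Cxcl2, 118 (92.9%) had Cxcl1, against 82.8% of all cells. Thinning to 5000 UMIs gave 80.6% against 58.2% and 90.8% against 78.4%. Cxcl1 and Ccl2, on different chromosomes, shared cells as well. Of 172 cells with Ccl2, 164 (95.35%) had Cxcl1, and 91.8% did after thinning. Ccl2 was closer to its share of all cells in those with Cxcl12, at 65.9% against 63.0%. In P0 epithelium 77 of 86 cells (89.5%) with Cxcl2 also had Cxcl1. Over the 28 clusters of the 4 libraries, Pearson's r of log2(CPM + 10) was 0.95 for Cxcl1 with Cxcl2 and 0.90 for Ccl2 with Ccl7, and it was -0.73 for Cxcl2 with Cxcl14. Between chromosomes it was 0.84 for Cxcl1 with Ccl7 and 0.78 for Cxcl1 with Ccl2. Clusters of 1 library share its depth and handling, so these coefficients describe 28 related points. Close paralogs in each pair also share sequence, and how many reads were lost to ambiguous mapping is not given in the sources used here.

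Genes with the most similar profile over the same 28 clusters were sought among 3849 genes. Ccl7 was nearest to Il6 (r = 0.99), the gene of the inflammatory cytokine interleukin 6, then Sod3 and Ifi205 (both 0.97), and Ccl2 to Fcgrt (0.94), Tnfaip6 and Medag (both 0.93). Cxcl2 was nearest to Srxn1 (0.93), Hmox1 and Gch1 (both 0.92), of which Srxn1 and Hmox1 are oxidative stress genes, and Cxcl1 to Ly6a, Phldb1 (both 0.92) and Prelp (0.91). Cxcl12 was nearest to Tmeff2, Ebf1 and Agtr2 (all 0.94). The profile of Cxcl10 had fewer close partners, with Rrad at 0.88, Bmpr2 at 0.79 and Arhgef12 at 0.77. Cxcl14 was nearest to Ankrd10 (0.88), Unc119 (0.86) and Wnt4 (0.85), Cxcl16 to Ppp1r2, Sgms2 and Dusp5 (all 0.83), and Cx3cl1 to Sdc4, Epha2 (both 0.85) and Arpc5 (0.84).

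Lists of genes that respond to the signals known to induce these chemokines were counted beside them. Of 12 NF-kB response genes, 5 of 8 tested were higher in epithelium and none in mesenchyme at E13.5, 6 and 2 of 8 at E14.5, 6 and 3 of 11 at E15.5, and 1 and 4 of 11 at P0. Of 17 interferon-response genes, 1 of 7 tested was higher in epithelium and 5 in mesenchyme at E13.5, 4 and 1 of 8 at E14.5, 9 and 5 of 15 at E15.5, and 0 and 12 of 14 at P0. The median log2 ratio of epithelium to mesenchyme was 0.81, 1.47, 0.68 and -0.74 for the NF-kB list and -0.56, 0.75, 0.53 and -1.29 for the interferon list, beside -0.12, 0.02, -0.05 and 0.19 over all genes tested. The shares of all genes called are those given above for the same comparisons, such as 18.4% in mesenchyme at P0. Both medians changed sign between E15.5 and P0, though 6 of 11 NF-kB genes were called for neither tissue at P0. At E13.5 the interferon list lay on the mesenchymal side as a whole while Cxcl10 was 12.2-fold epithelial. Among the E13.5 clusters, however, the bud-like one had the highest summed interferon list, at 113.1 CPM (81.5 to 153). The other epithelial clusters had 57.2 and 28.1, and the mesenchymal ones lay between 67.8 and 97.2 (80.9 to 116), the last with an overlapping interval. Of 12 immediate early and heat shock genes known to respond to tissue dissociation, 0 were higher in epithelium and 7 in mesenchyme at P0, where the median was -1.35, and the part of dissociation in the P0 chemokine levels was not tested.

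At E14.5 and E15.5, cells with a Cxcl10 UMI held more of the interferon and NF-kB lists than those without. After thinning, the 17 E14.5 epithelial cells with Cxcl10 had 647 CPM of summed interferon-response genes against 164 in the 28 without, 3.94-fold (2.38 to 6.72), and 2.00-fold (1.52 to 2.64) more of the NF-kB list. At E15.5 the same ratios in epithelium were 2.06 (1.71 to 2.49) and 1.67 (1.53 to 1.83), with 279 cells against 253, and in E15.5 mesenchyme they were 2.28 (1.502 to 3.36) and 2.31 (1.84 to 2.87), with 25 against 258. In P0 mesenchyme they were 1.08 (0.946 to 1.23) and 1.36 (1.27 to 1.46), and the interval of the interferon ratio held 1. Cells with Ccl2 in E15.5 mesenchyme had 1.58-fold (1.12 to 2.20) more of the interferon list and 1.88-fold (1.56 to 2.25) more of the NF-kB list. Cells with Ccl2 in P0 mesenchyme had 1.80-fold (1.67 to 1.95) more of the NF-kB list, and cells with Cxcl1 had 2.16-fold (1.94 to 2.42) more in mesenchyme and 2.04-fold (1.81 to 2.30) more in epithelium, while their interferon ratios, 1.07, 0.912 and 0.822, had intervals that held 1. The dissociation list moved too, at 1.86-fold in the E14.5 Cxcl10 cells and 1.73-fold in those of E15.5 mesenchyme. It was at 1.18-fold in those of E15.5 epithelium and 1.32-fold in those of P0 mesenchyme. The Ccl2 cells had 1.10-fold at E15.5 and 0.897-fold at P0. The P0 Cxcl1 cells had 1.22-fold in mesenchyme and 1.26-fold in epithelium. These splits did not hold the cluster fixed. At E14.5, before thinning, bud-like cells had 349.5 CPM of the interferon list and 1038 of the NF-kB list. The other epithelial cluster had 155.1 and 393.5. At E15.5 the bud-like cluster, highest in Cxcl10, had 129.9 CPM of the interferon list and 910.2 of the NF-kB list. The luminal-like cluster had 150.3 and 515.3, and the largest unnamed one 279.5 and 876.5. Proliferative-like cells had 229.0 and 793.7, and the unnamed cluster with Dcn and Has2 had 162.3 and 942.1. The epidermis-like cells, with no Cxcl10 UMI, had 24.6 and 266.8.

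Receptors for most of these ligands were at or near 0. Over 1627 kept epithelial and mesenchymal cells no UMI of Cxcr3, the receptor of CXCL10, or of Ccr2, the receptor of CCL2 and CCL7, was counted. Cxcr6 had 2 UMIs in 2 cells and Cx3cr1 had 5 in 1 cell. Cxcr2 had 72 UMIs in 58 cells and Cxcr4 48 in 35. Ackr1 had 68 UMIs in 43 cells, with 44 of them in 26 cells of P0 mesenchyme (17.55 CPM). The scavenger Ackr3, which binds CXCL12, was the exception, with 809 UMIs in 382 cells, and it stood at 40.7 CPM in epithelium and 28.7 in mesenchyme at E13.5 and at 5.36 and 112 at P0. Blood cells, the main carriers of CXCR3, CCR2, CXCR6 and CX3CR1, were removed by the sort, so the counts speak for the sorted tissue only. Of 23 chemokine receptor genes in the list, 1, 1, 6 and 2 reached 20 UMIs at the 4 stages, and 0, 1, 4 and 2 of them were higher in mesenchyme and none in epithelium. The shares of all genes called are those given above for the same comparisons.

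Of the 6 proteases listed as able to cut chemokines, 4 or 5 were tested at each stage, and 2 were higher in mesenchyme at every embryonic stage (Mmp2 and Mmp14) and 3 at P0 (with Dpp4). Dpp4 was higher in epithelium at E15.5 and Adam10 at P0. Over all genes tested, 16.8% to 22.3% were called higher in mesenchyme and 9.81% to 23.8% in epithelium, depending on the stage. Mmp2 was 5.42-fold (3.92 to 7.66) and Mmp14 2.88-fold (2.25 to 3.71) higher in E13.5 mesenchyme, and Adam10 and Adam17, which shed CXCL16 and CX3CL1, were called for neither tissue there. Dpp4, whose product trims CXCL10 and CXCL12, had 188 CPM in P0 mesenchyme and 2.68 in P0 epithelium.

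Immune marker UMIs were most frequent in P0 mesenchyme, and their level differed between its clusters. The 10 immune markers listed summed to 1028 CPM in the unnamed cluster with haemoglobin genes. That cluster had 1429 CPM of Ccl2 and 3552 of Cxcl1. Col15a1 fibroblast-like cells, highest in both genes, had 141 CPM of the markers. The markers summed to 401.5 CPM in Pi16 fibroblast-like cells, 330.4 in Eln fibroblast-like cells and 34.55 in the muscle-gene cluster. Those clusters had 3507, 657 and 1188 CPM of Ccl2 and 3969, 4501 and 1589 of Cxcl1. Of 10 immune markers, Cd3e alone gave 787 UMIs in P0 mesenchyme, and the other 9 summed to 118 CPM there, against 9.56 in P0 epithelium and 5.81 to 14.6 in the embryonic groups. The pan-leukocyte gene Ptprc had 10 UMIs in 2 P0 mesenchymal cells, 1 UMI in P0 epithelium and none in the embryo, and the part of such cells in the P0 levels was not tested. The 16 P0 cells with UMIs of at least 2 immune markers held 1.83% of the Ccl2, 3.33% of the Cxcl1 and 4.40% of the Cxcl10 UMIs of that library. Over all genes these cells held 233285 of 5122125 UMIs. At E15.5 the 26 cells with at least 2 markers, with 984360 of 21559040 UMIs over all genes, held 6.15% of the Cxcl10 and 8.69% of the Cxcl2 UMIs. Of these 26 cells, 21 were called epithelium, where Cd68 alone gave 157 of the 211 marker UMIs, so the markers do not make them immune cells. Without the 26 cells the E15.5 log2 ratio of Cxcl2 was 0.92, under the 2-fold line.

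Barcodes under the 5000-UMI minimum held at least 2-fold more of 5 of these genes at E15.5 than the kept cells of both tissues together did. The 1552 such barcodes had 248 CPM of Ccl7 against 2.55 in kept cells, 97.1-fold (73.2 to 131) higher, from 450 UMIs in 254 barcodes with at most 7 in one. Also higher were Cxcl2 at 17.7-fold (15.6 to 20.2), Cxcl1 (379.6 CPM against 24.5), Cxcl12 at 6.33-fold (5.13 to 7.78) and Ccl2 at 4.94-fold (4.43 to 5.49). Kept mesenchyme alone had 39.4 CPM of Cxcl1, 11.0 of Cxcl2 and 19.3 of Cxcl12. It had 159.6 CPM of Ccl2, against 270.1 in the shallow barcodes, and 7.30 of Ccl7. Mesenchyme-called barcodes held 600 of 690 shallow UMIs of Cxcl1, 377 of 491 of Ccl2 and 127 of 143 of Cxcl12. For Ccl7 it was 308 of 450 and for Cxcl2 143 of 602. The part of the tissue mix in these folds was not tested. Cxcl16 was 1.75-fold (1.34 to 2.25) higher, with an interval over 1 but under the 2-fold line. Cxcl10 (0.883-fold), Cxcl14 (0.996-fold) and Cx3cl1 (1.26-fold, 0.833 to 1.84) were not higher beyond counting error. No gene was called higher in the barcodes under the minimum of the other 3 libraries. The E15.5 levels of Ccl2, Ccl7, Cxcl1, Cxcl2 and Cxcl12 given above therefore describe the deep barcodes only, and what the shallow ones are was not tested.

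**Figure D5:**
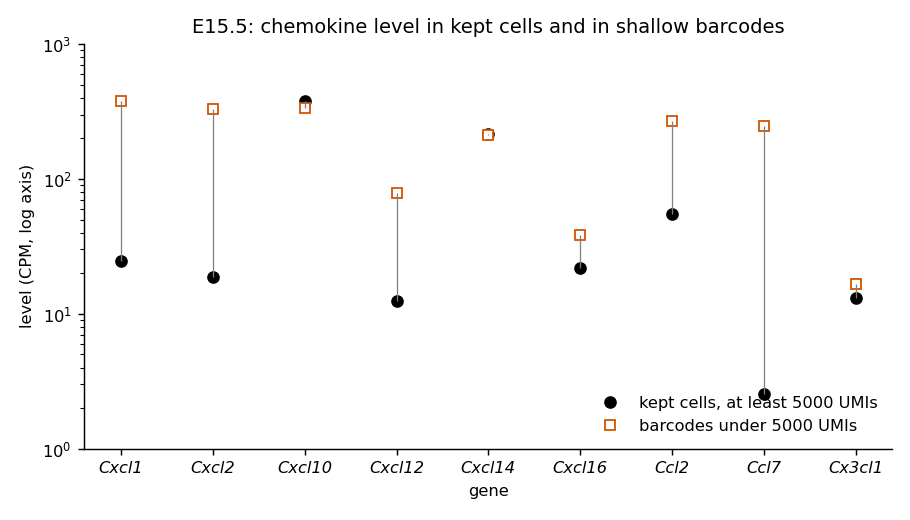
Level of each gene in CPM (log axis) at E15.5 in kept cells of both tissues together (filled circles) and in barcodes under 5000 UMIs (open squares). The squares of Cxcl1, Cxcl2, Cxcl12, Ccl2 and Ccl7 lie above the circles, with the widest gap for Ccl7 (248 against 2.55 CPM), while those of Cxcl10 and Cxcl14 lie close to theirs.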

How the data were processed

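The authors aligned the reads to mm10 with Cell Ranger (6.0.0 per the labels and the headers of 3 tables, 3.1.0 per the E15.5 header, whose table lists 31053 genes against 32285) and deposited raw UMI counts per gene and barcode for each of the 4 libraries. From these counts, barcodes that reached 5000 UMIs with no more than 6% of them mitochondrial were kept and assigned to epithelium or mesenchyme by summed marker UMIs, with 3 ties left out. UMIs were summed per group. Intervals are exact at 95% (Poisson for levels, Clopper-Pearson for shares, conditional binomial for ratios). Only the ratio interval and the call rule were run on simulated data with known ratios. Those were Poisson counts per pooled tissue, so the simulation cannot show how the intervals behave where single cells hold many of the UMIs. With 1 library per stage and cells that are not replicates, no p-value was computed. Cells of each stage and tissue were clustered after the settings of the study (SCTransform, 2000 variable genes, 15 components, resolution 0.8, in Seurat 5.3.0 with sctransform 0.4.2), with the members and the NF-kB, interferon, dissociation and chemokine lists kept out of the variable genes. Clusters were named from marker lists. They went unnamed where no list passed, or where genes of another list outnumbered the markers among the leading genes. Shallow clusters with no marker among the leading genes also went unnamed. The same held where blood or muscle genes outnumbered the markers, a rule added after the clusters had been seen. Doublets called by Scrublet (scanpy 1.11.5), 2, 4, 7 and 4 cells, and 14, 1, 13 and 17 cells with UMIs of both tissues were kept and left out as alternatives. The members and all lists were chosen with earlier results of these data known. Named are all members, the list genes of highest level or with at least 20 UMIs, and for likeness the 3 genes of highest r. Alternatives changed the UMI minimum, mitochondrial maximum, depth, tissue rule, bud rule, resolution and single cells.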

Additional observations from a re-analysis of the deposited data

Results flagged for a closer look

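The direction between tissues differed between stages for 3 genes, and the difference between stages was not tested. The log2 ratio of epithelium to mesenchyme for Cxcl10 ran through 3.61 (E13.5), 9.31 (E14.5) and 3.33 (E15.5) to -4.01 for P0. For Cxcl1 it was -1.003, 1.76, -1.22 and -2.84 over the same stages. For Cxcl2 it was 2.77 at E14.5 when counted against a floor of 3 UMIs, since mesenchyme held none, then 1.04 for E15.5 and -1.49 for P0.

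Barcodes left out for holding under 5000 UMIs carried a signal at E15.5 for 5 genes at least 2-fold above that of the kept cells of both tissues together. In those barcodes Cxcl1 stood at 379.6 CPM, Cxcl2 at 331 CPM, Cxcl12 at 78.7 CPM, Ccl2 at 270.1 CPM and Ccl7 at 248 CPM. Their median mitochondrial share was 3.66%, against 4.81% in kept cells.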

How the results depend on the processing

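The 27 tissue ratios did not all give a value under each of the 10 alternatives. Cxcl1 at E14.5 gave none after thinning, with 4 epithelial UMIs and 1 mesenchymal UMI left. In all, 261 values were recomputed, and none changed direction. In 8 of them a call was lost (Cxcl14 at P0 with at least 10000 UMIs, at a log2 ratio of 1.25 whose interval held 0, Cxcl16 there at 0.80, 5 values of Cxcl1 at E13.5 or E15.5, between -0.86 and -0.97, and Cxcl2 at E15.5 without cells with immune markers), and in 2 a call was gained (Cxcl14 at E15.5, at 1.07 with a mitochondrial maximum of 10% and 1.03 without mixed cells). A mean over cells has no interval and so gives no call, but it put Cxcl1 at E13.5 (-0.88), Cxcl2 at E15.5 (0.99) and Cxcl14 at E15.5 (1.05) across the 2-fold line and moved Cxcl2 at P0 to -1.39. Thinning moved Cxcl12 at E13.5 from -5.57 to -4.03 and Cxcl16 at E15.5 from 4.42 to 3.55. Over the settings, 11 to 15 ratios were called for epithelium (14 as reported) and 9 to 13 for mesenchyme (13 as reported). Cxcl10 in bud-like against other epithelium, at log2 ratios of 2.96 (E13.5) and 4.84 (E14.5), was 3.44 and 2.86 as a mean over cells. With bud cells picked by marker sum it was -3.90 and -0.94, against epithelium that included the bud-like cells not picked. Why Cxcl10 differed between the picked and unpicked bud-like cells was not tested. The E14.5 ratio otherwise lay between 2.67 (mitochondrial maximum of 10%) and 6.13 (at least 10000 UMIs), and the E13.5 ratio was 1.88 without its highest cell. A resolution of 0.4 left 1 epithelial cluster at E14.5 and so gave no value, counts have no value as a mean over cells, and Cxcl2 at E14.5 was left out of the recomputed ratios because mesenchyme held no UMI. No paired analysis was possible because each stage is 1 library. Depth limits the 76 kept cells of E14.5 most, where a gene with no UMI could still stand at 2.36 CPM in epithelium and 3.58 CPM in mesenchyme by the 3-count floor.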

Other observations

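Other chemokine genes differed between the tissues as well. Cxcl13, a B cell chemokine, had 127 UMIs (52.7 CPM) in E13.5 mesenchyme and none in E13.5 epithelium, then 1 UMI at E14.5 and 80 in mesenchyme at E15.5. Cxcl9, which shares the receptor of Cxcl10, had 82 UMIs in epithelium against 1 in mesenchyme at E15.5 and 73 in mesenchyme against 0 in epithelium at P0. Of 28 or 29 other ligand genes, 3, 3, 8 and 9 reached 20 UMIs at the 4 stages, with 0, 1, 5 and 4 higher in epithelium and 1, 0, 1 and 5 in mesenchyme. The shares of all genes called in these comparisons are given above. Cd3e, the gene of a T cell receptor subunit, had 787 UMIs in 84 cells of P0 mesenchyme.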
